A study of Mus musculus with 12 samples.

Results

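Respiratory complexes III and IV, cytochrome c and ATP synthase carry the last steps of oxidative phosphorylation, and their nuclear genes were followed here in cultured mouse T cells. The members were all genes with a probe set of a single annotated symbol that begins with Uqcr, Cox4 to Cox8 or Atp5, plus Cyc1 and Cycs, with symbols marked as pseudogenes left out. These were 43 of the 22180 genes named on the array: 8 of complex III, 1 of cytochrome c, 17 of complex IV and 17 of ATP synthase. A tested gene had a mean over the 12 arrays of at least log2 4.28, and 38 of the 43 members and 14323 genes in all met this.

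Splenocytes, the mixed cells of the spleen, were kept for 24 h with 50 µM linoleic acid, a dietary polyunsaturated fatty acid, or without it, and CD8+ or CD4+ T cells were then sorted. The 4 groups of 3 arrays are linoleic acid CD8, control CD8, linoleic acid CD4 and control CD4 T cells, and the series asks whether the 2 cell types respond differently. The labels name the mouse as the organism and name no strain, genotype, sex or age. They do not say whether replicates came from separate animals or cultures, so a p-value here speaks of the spread among these arrays, and that spread may be technical.

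Every value is a log2 intensity as deposited. The median of an array was 4.66 to 4.80, and pairs of arrays correlated at 0.946 to 0.984 over all probe sets. Markers of the sorted cell types parted as labelled. The 7 CD8 markers averaged 9.37 to 9.72 on CD8 arrays and 6.45 to 6.88 on CD4 arrays, and the 6 CD4 markers averaged 5.81 to 6.07 on CD8 arrays and at least 8.63 on CD4 arrays. B cell markers, which a T cell sort is meant to leave behind, had list means (13 of 13 measured genes tested) of 5.95 to 7.25 in linoleic acid CD8, 5.89 to 7.21 in control CD8, 6.37 to 7.71 in linoleic acid CD4 and 6.33 to 7.55 in control CD4 T cells. Myeloid markers (15 of 16 measured genes tested) had list means of 5.29 to 6.12 over the 12 arrays and NK cell markers (5 of 6) of 4.65 to 5.65. In each group the array numbered 1 held the lowest mean of each of the 3 lists, and the part of this in the results was not tested. Counts are also given for the arrays numbered 2 and 3 only. The sort was done after the culture, and in RNA from many cells, fewer cells of a type and less RNA per cell cannot be told apart.

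Complex III takes electrons from ubiquinol and passes them to cytochrome c, a small soluble carrier that also triggers caspases when it leaves the mitochondrion. Complex IV hands these electrons to oxygen, and ATP synthase uses the proton gradient that the chain builds to make ATP by rotation of a membrane ring. T cells are known to draw on oxidative phosphorylation at rest and to enlarge it on activation. Both mitochondrial and nuclear genomes encode these complexes, and the array annotation named 0 mitochondrially encoded genes, so the catalytic core of complex IV and the cytochrome b of complex III are not analysed here.

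Nuclear genes of the respiratory chain are known targets of NRF1, of the ETS factor GABP (also called NRF2) and of YY1, and the promoters of the members were read for short cores of these motifs. RefSeq promoters of build GRCm38.p6, 250 bases before to 50 bases after each start, were found for 33 of the 43 members, which gave 36 promoters. The NRF1 core GCGCATG stood on either strand in 8 of the 36 (22.2%), against 3.91% of 32851 promoters of all genes and 6% of the 13907 promoters of tested genes. The ETS core CCGGAAG stood in 11 of 36 (30.6%), against 8.86% of all promoters and 15.1% of those of tested genes. The YY1 core ATGGCGG stood in 2 of 36 (5.56%), against 4.05% and 6.90%. At least 1 of the 3 cores was found in 16 of 36 member promoters (44.4%), against 15.0% of all promoters and 24.8% of those of tested genes. The 36 include promoters of untested members. Among the 32 promoters of tested members, the NRF1 core stood in 8 (25%), the ETS core in 11 (34.4%) and the YY1 core in 2 (6.25%). At least 1 core stood in 16 of the 32 (50%). Such a match is a description of letters and not a bound site.

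The 100 bases before the start are printed for 7 members, picked from those that hold a core there. Other members, such as Atp5j, Uqcr11 and Cox6a1, also hold a core in that stretch. Some cores lie outside it, as in Atp5l, so the 7 do not show where the cores lie in general. An NRF1 core stands before Cycs, the ATP synthase genes Atp5g2 and Atp5k and the complex IV gene Cox5b, and an ETS core before Atp5h, Uqcrh and Cox6b1. Each is printed from 5′ to 3′ on the strand of its gene, with the core on either strand in capitals; in Atp5g2 and Atp5k the cores of both strands overlap and form 1 palindrome.
Cycs, chr6:50566570-50566669, minus strand: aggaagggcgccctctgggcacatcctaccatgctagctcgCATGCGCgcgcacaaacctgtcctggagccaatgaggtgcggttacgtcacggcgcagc
Atp5g2, chr15:102671048-102671147, minus strand: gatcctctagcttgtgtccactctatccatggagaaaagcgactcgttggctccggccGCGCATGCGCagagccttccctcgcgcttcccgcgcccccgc
Atp5k, chr5:108434400-108434499, minus strand: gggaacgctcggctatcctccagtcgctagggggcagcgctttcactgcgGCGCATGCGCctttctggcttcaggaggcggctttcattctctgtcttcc
Cox5b, chr1:36691387-36691486, plus strand: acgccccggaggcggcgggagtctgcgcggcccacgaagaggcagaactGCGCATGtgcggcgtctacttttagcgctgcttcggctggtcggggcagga
Atp5h, chr11:115419920-115420019, minus strand: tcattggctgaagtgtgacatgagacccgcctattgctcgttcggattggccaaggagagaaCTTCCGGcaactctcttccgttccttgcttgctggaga
Uqcrh, chr4:116075071-116075170, minus strand: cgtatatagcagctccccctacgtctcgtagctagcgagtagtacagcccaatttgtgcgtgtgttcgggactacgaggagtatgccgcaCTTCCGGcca
Cox6b1, chr7:30626115-30626214, minus strand: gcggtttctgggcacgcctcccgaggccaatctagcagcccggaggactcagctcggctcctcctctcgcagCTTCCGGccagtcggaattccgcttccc

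In CD4 T cells, most members stood lower after linoleic acid than in control culture, by small amounts. Of the 38 tested members 34 (89.5%) lay below 0, against 51.4% of all tested genes, and their median log2 difference was -0.19, against 0.00 over all genes. ATP synthase had the lowest median of the 3 complexes at -0.25, with 16 of its 17 members below 0, and complex III stood at -0.19 (6 of 8 below 0) and complex IV at -0.15 (11 of 12 below 0). No single member passed the threshold of an adjusted p of 0.05 in limma, nor did any other gene (0 of 14323, 0%). At an unadjusted limma p under 0.05, 8 members were lower (21.1%, against 1.84% of all genes) and 0 were higher (against 0.768%). With the replicate number as a block, 12 members were lower at that level (31.6%, against 3.30%) and 0 passed after adjustment (0%, against 0.00698% of all genes).

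The 3 arrays of each group did not overlap for 12 members, all lower after linoleic acid (31.6%, against 4.52% of all genes lower and 2.92% higher). They were Uqcrb, Uqcrc2 and Uqcrfs1 of complex III, Cox7a2 of complex IV, and Atp5c1, Atp5e, Atp5g3, Atp5h, Atp5j2, Atp5md, Atp5mpl and Atp5pb of ATP synthase. Pairing arrays by their number, 22 members were lower in 3 of 3 pairs (57.9%, against 14.1% of all genes) and 1, Uqcrc1, was higher in 3 of 3 (2.63%, against 13.5%). On the arrays numbered 2 and 3 only, 33 members lay below 0 (against 49.9% of all genes), their median was -0.17, and 8 were lower at an unadjusted p under 0.05 (against 2.23% of all genes). With only linoleic acid CD4 replicate 3 left out of the 12 arrays, 5 members were lower at that level (against 1.16% of all genes). B cell markers stood above 0 in 11 of 13 tested genes in this comparison (median 0.16) and myeloid markers in 9 of 15 (median 0.10), and their part in the result was not tested.

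**Figure D1:**
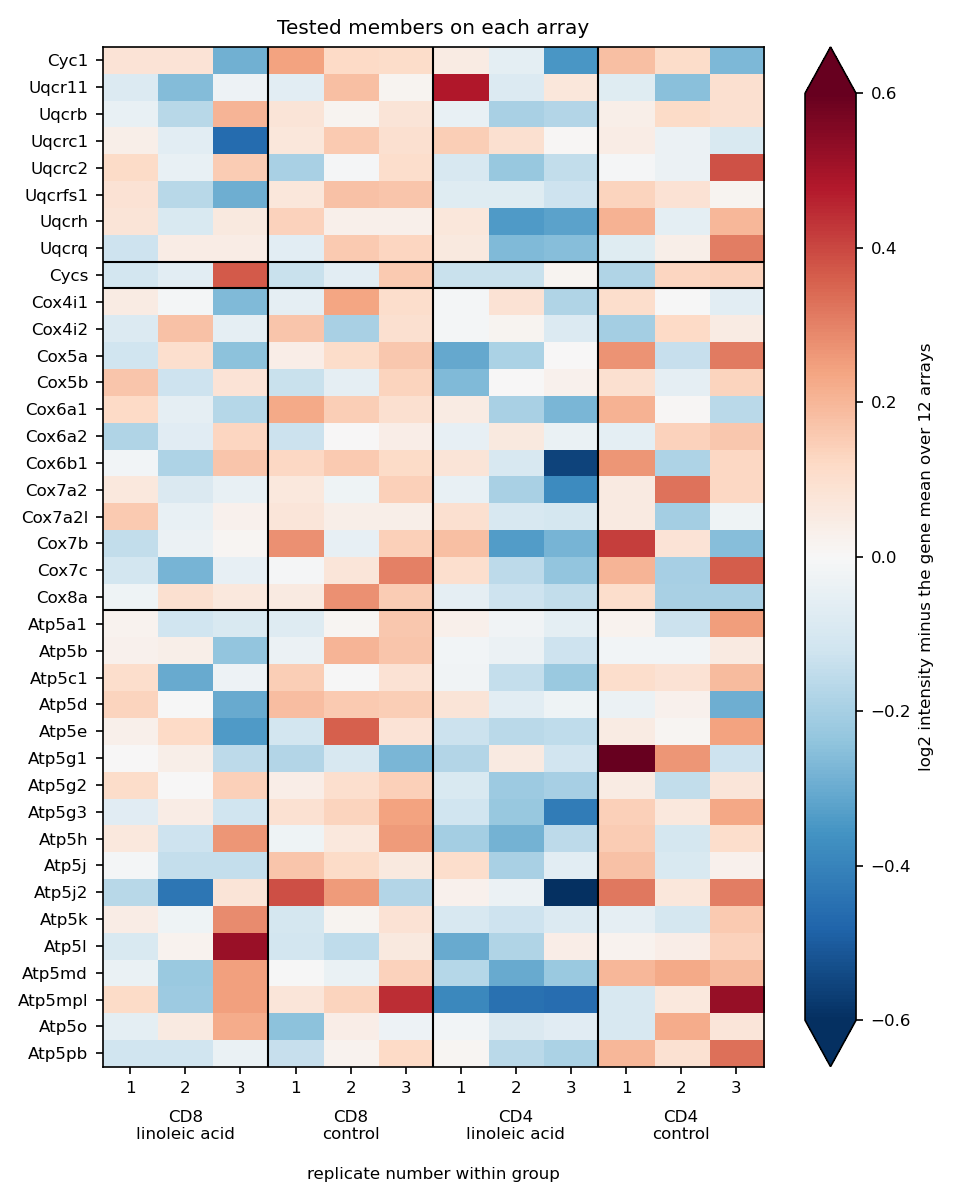
Log2 intensity of the 38 tested members (rows, grouped from top to bottom as complex III, cytochrome c, complex IV and ATP synthase) on the 12 arrays (columns, 3 per group), each shown as its difference from the gene's own mean over the 12 arrays and drawn with a colour range of -0.6 to 0.6. The linoleic acid CD4 arrays hold the most blue, and single arrays such as linoleic acid CD8 replicate 3 move different members in opposite directions.

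Atp5mpl, Atp5g3 and Atp5md of ATP synthase had the smallest p of the members in CD4 T cells. Atp5mpl, a small proteolipid of the membrane part of the enzyme, had 7.28, 7.22 and 7.21 in linoleic acid CD4 T cells, against 7.57, 7.73 and 8.19 in control CD4 T cells. All 3 linoleic acid arrays lay close together and below every control array, among which replicate 3 was the highest. Its difference was -0.60 ± 0.17 (SE, n = 3 per group), 1.51-fold lower, with a limma unadjusted p = 0.00349, an adjusted p = 1 and an adjusted p = 0.337 with the replicate block. Without control CD4 replicate 3 the difference was -0.42.

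Atp5md, which takes part in dimer formation of the enzyme, had 9.40, 9.27 and 9.35 in linoleic acid CD4 T cells, against 9.77, 9.80 and 9.76 in control CD4 T cells. Its control arrays lay close together, and the groups did not overlap (-0.44 ± 0.13, limma unadjusted p = 0.00389). Atp5g3, 1 of the 3 genes that encode the same mature subunit of the rotating ring, had 7.36, 7.25 and 7.06 in linoleic acid CD4 T cells, against 7.62, 7.54 and 7.71 in control CD4 T cells. Every linoleic acid array stood below every control array, and replicate 3 had the widest gap (-0.40 ± 0.12, limma unadjusted p = 0.00386). Its sister gene Atp5g2 had 10.46, 10.33 and 10.35 in linoleic acid CD4 T cells, against 10.60, 10.40 and 10.62 in control CD4 T cells, a difference of -0.16 ± 0.11. Atp5g1, the remaining ring gene, had 5.02, 5.25 and 5.08 in linoleic acid CD4 T cells, against 5.96, 5.46 and 5.07 in control CD4 T cells. The control values of Atp5g1 spread widely, replicate 1 being far above replicate 3, and the groups overlapped (-0.38 ± 0.18). Its linoleic acid CD4 mean of 5.11 lay at the gauge of background given further on (log2 5.11), so that this value is not a measured level above background.

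Stalk subunits, which hold the catalytic head still, stood at -0.32 to -0.09. Atp5pb, the membrane-anchored stalk subunit, stood at -0.32 ± 0.12 (limma unadjusted p = 0.0154) and Atp5h, which lies beside it, at -0.26 ± 0.13. Atp5j, the coupling subunit of the same stalk, had 6.53, 6.23 and 6.36 in linoleic acid CD4 T cells, against 6.60, 6.33 and 6.45 in control CD4 T cells, and the groups overlapped (-0.09 ± 0.12). Atp5o, which caps the stalk, differed by -0.12 ± 0.13. The membrane subunits Atp5j2, Atp5l and Atp5k stood at -0.44 ± 0.20, -0.21 ± 0.15 and -0.10 ± 0.12. The same-numbered pairs of Atp5j2 differed by -0.29, -0.10 and -0.93. Its linoleic acid CD4 mean of 5.18 lay near the gauge of background.

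Genes of the catalytic head and central shaft stood at -0.25 to 0.10 in CD4 T cells. Atp5a1 and Atp5b, whose products form the catalytic ring of the head, differed by -0.07 ± 0.12 each. Central shaft genes were mixed: Atp5c1 stood at -0.25 ± 0.12, Atp5e at -0.25 ± 0.15 and Atp5d at 0.10 ± 0.13. Atp5d, the single ATP synthase gene above 0, had 7.11, 6.97 and 7.01 in linoleic acid CD4 T cells, against 7.0, 7.06 and 6.74 in control CD4 T cells. Only replicate 3 of the control arrays lay outside the range of the linoleic acid arrays. These values are of the probe set used, and a second Atp5d probe set stood below 0 in CD4 T cells (-0.18 ± 0.40).

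Complex IV members differed by -0.37 to 0.02 in CD4 T cells. Cox7a2, a small membrane subunit that also takes part in contacts between respiratory complexes, had 7.49, 7.34 and 7.16 in linoleic acid CD4 T cells, against 7.59, 7.86 and 7.66 in control CD4 T cells. Its groups did not overlap (-0.37 ± 0.12, limma unadjusted p = 0.00884). Cox5a, a subunit on the matrix side, had 7.0, 7.12 and 7.31 in linoleic acid CD4 T cells, against 7.58, 7.17 and 7.62 in control CD4 T cells. Control replicate 2 lay inside the range of the linoleic acid arrays, and the difference was -0.31 ± 0.14 (limma unadjusted p = 0.0475). Its neighbour Cox5b, which binds zinc, had 8.01, 8.28 and 8.30 in linoleic acid CD4 T cells, against 8.37, 8.22 and 8.41 in control CD4 T cells, and control replicate 2 lay inside the range of the linoleic acid arrays (-0.14 ± 0.13).

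Cox6a1, Cox7c and Cox8a are further subunits of complex IV. Cox6a1, the widely expressed form of a regulatory subunit, had 11.07, 10.83 and 10.75 in linoleic acid CD4 T cells, against 11.23, 11.03 and 10.86 in control CD4 T cells, with each linoleic acid array below its same-numbered control (-0.15 ± 0.13). Cox7c, a small membrane subunit, had 7.22, 6.96 and 6.88 in linoleic acid CD4 T cells, against 7.32, 6.92 and 7.48 in control CD4 T cells. Replicate 2 did not follow the other 2 numbers there (-0.22 ± 0.16). Cox8a, a small membrane subunit, had 10.14, 10.07 and 10.05 in linoleic acid CD4 T cells, against 10.30, 10.00 and 10.00 in control CD4 T cells, a difference of -0.02 ± 0.12 with replicate 1 alone at -0.16. Cox4i1, a regulatory subunit, and Cox7a2l, a supercomplex factor and not a subunit in the strict sense, stood at -0.05 ± 0.13 and 0.02 ± 0.11.

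Complex III held members on both sides of 0. Uqcrh, the hinge subunit that helps cytochrome c dock, had 8.17, 7.76 and 7.78 in linoleic acid CD4 T cells, against 8.31, 8.04 and 8.30 in control CD4 T cells. The linoleic acid array numbered 1 overlapped the controls, and the difference was -0.31 ± 0.13 (limma unadjusted p = 0.0362). Uqcrc2, 1 of the 2 large core subunits, had 8.88, 8.75 and 8.83 in linoleic acid CD4 T cells, against 8.97, 8.94 and 9.36 in control CD4 T cells. The groups did not overlap, and control replicate 3 was the highest array (-0.27 ± 0.13, and -0.13 without it). Its partner core subunit Uqcrc1 had 7.89, 7.84 and 7.75 in linoleic acid CD4 T cells, against 7.79, 7.71 and 7.65 in control CD4 T cells, the opposite side of 0, with each linoleic acid array above its same-numbered control (0.11 ± 0.13).

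Uqcrfs1 and Cyc1 are the redox subunits of complex III that the nucleus encodes. Uqcrfs1, the Rieske iron-sulfur protein, had 5.84, 5.84 and 5.79 in linoleic acid CD4 T cells, against 6.05, 6.0 and 5.93 in control CD4 T cells, a narrow gap with no overlap (-0.17 ± 0.12). Cyc1, the haem protein that reduces cytochrome c, had 6.43, 6.32 and 6.03 in linoleic acid CD4 T cells, against 6.56, 6.49 and 6.11 in control CD4 T cells. Replicate 3 was the lowest array of both groups, and they overlapped (-0.12 ± 0.15, with -0.01 without linoleic acid replicate 3 and -0.26 without control replicate 3). The small subunit Uqcr11 had 6.16, 5.60 and 5.75 in linoleic acid CD4 T cells, against 5.61, 5.43 and 5.78 in control CD4 T cells, and linoleic acid replicate 1 stood far above the rest (0.23 ± 0.15). Cycs, cytochrome c itself, had 8.71, 8.71 and 8.86 in linoleic acid CD4 T cells, against 8.66, 8.97 and 8.98 in control CD4 T cells (-0.11 ± 0.15), with control replicate 1 as the lowest of the 6 arrays.

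**Figure D2:**
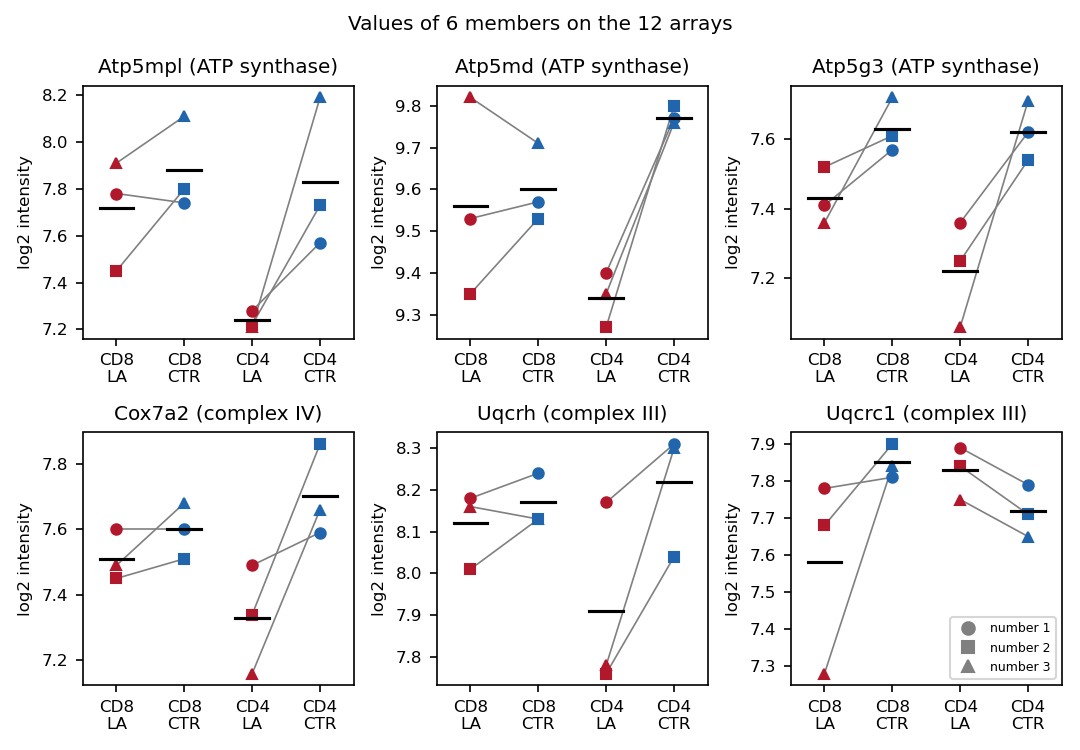
Log2 intensity (vertical axis, scaled per gene) of 6 members on the 12 arrays. Points are single arrays shaped by replicate number (red, linoleic acid; blue, control), grey lines join arrays of 1 number within a cell type, and black bars are group means. Atp5mpl, Atp5md, Atp5g3 and Cox7a2 show no overlap between the CD4 groups, Uqcrh overlaps through 1 array, and for Uqcrc1 the CD4 and CD8 lines slope in opposite directions.

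In CD8 T cells, the members also lay mostly below 0 after linoleic acid, but so did most genes on the array. Of the 38 tested members 31 (81.6%) lay below 0, against 63.1% of all genes, and the median was -0.10, against -0.06 over all genes. Complex III and complex IV each had a median of -0.13 (7 of 8 and 11 of 12 below 0), and ATP synthase stood at -0.10 (13 of 17 below 0). Among brighter genes only, with the filter at the 60th percentile, 29 of 36 members lay below 0, against 77.6% of 9612 genes. The share of members was then near that of all genes. With each array centred on its 75th percentile, 23 of 38 lay below 0 (against 49.1% of all genes, and 73.2% with arrays centred on the median) and the median was -0.04, against 0.00 over all genes. No gene passed the adjusted threshold in limma (0 of 14323, 0%). At an unadjusted p under 0.05, 1 member was lower (2.63%, against 2.72% of all genes) and 0 were higher (against 2.36%), a share near the background. With the replicate block 2 members were lower at that level (5.26%, against 8.62%).

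The groups did not overlap for 6 members, all lower after linoleic acid (15.8%, against 5.70% of all genes lower and 3.32% higher): Uqcrc1, Cyc1, Cox7c, Atp5d, Atp5g3 and Atp5j. In 3 of 3 same-numbered pairs 12 members were lower (31.6%, against 21.5%) and 4 were higher (10.5%, against 10.3%). On the arrays numbered 2 and 3 only, 30 lay below 0 (against 63.1% of all genes) and the median was -0.13. B cell markers stood above 0 in 10 of 13 tested genes (median 0.10) and myeloid markers in 13 of 15 (median 0.13), and their part in the result was not tested.

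Uqcrfs1 and Uqcrc1 of complex III had the smallest p of the members in CD8 T cells. Uqcrfs1, the iron-sulfur protein, had 6.0, 5.75 and 5.62 in linoleic acid CD8 T cells, against 5.98, 6.09 and 6.08 in control CD8 T cells. Replicate 1 barely differed between the cultures, and the difference was -0.26 ± 0.12, 1.20-fold lower (limma unadjusted p = 0.0415, adjusted p = 0.757). Uqcrc1 had 7.78, 7.68 and 7.28 in linoleic acid CD8 T cells, against 7.81, 7.90 and 7.84 in control CD8 T cells. The groups did not overlap, but linoleic acid replicate 3 lay far below the rest, and the difference of -0.27 ± 0.13 was -0.12 without it. Cyc1 had 6.46, 6.46 and 6.09 in linoleic acid CD8 T cells, against 6.62, 6.50 and 6.49 in control CD8 T cells, again with replicate 3 lowest (-0.20 ± 0.15, and -0.08 without that array). Uqcrc2, the other core subunit, had 9.09, 8.93 and 9.13 in linoleic acid CD8 T cells, against 8.78, 8.97 and 9.08 in control CD8 T cells and stood above 0 (0.11 ± 0.13). Uqcrh had 8.18, 8.01 and 8.16 in linoleic acid CD8 T cells, against 8.24, 8.13 and 8.13 in control CD8 T cells (-0.05 ± 0.13). Uqcr11 had 5.60, 5.42 and 5.65 in linoleic acid CD8 T cells, against 5.62, 5.86 and 5.70 in control CD8 T cells (-0.17 ± 0.15). For both genes the cultures overlapped.

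Complex IV in CD8 T cells ranged from -0.26 to 0.06. Cox7c had 7.01, 6.84 and 7.07 in linoleic acid CD8 T cells, against 7.11, 7.19 and 7.42 in control CD8 T cells, with no overlap (-0.26 ± 0.16, and -0.17 without control replicate 3). Cox6a1 had 11.14, 10.97 and 10.85 in linoleic acid CD8 T cells, against 11.25, 11.17 and 11.12 in control CD8 T cells, each array below its same-numbered control (-0.19 ± 0.13, and -0.12 without linoleic acid replicate 3). Cox5a had 7.19, 7.41 and 7.06 in linoleic acid CD8 T cells, against 7.35, 7.42 and 7.47 in control CD8 T cells, and its replicate 2 hardly differed (-0.19 ± 0.14). Cox7a2, first among complex IV genes in CD4 T cells, had 7.6, 7.45 and 7.49 in linoleic acid CD8 T cells, against 7.6, 7.51 and 7.68 in control CD8 T cells here and overlapped (-0.08 ± 0.12). For Cox8a the values were 10.17, 10.29 and 10.26 in linoleic acid CD8 T cells, against 10.25, 10.47 and 10.35 in control CD8 T cells (-0.11 ± 0.12). Cox5b had 8.44, 8.15 and 8.36 in linoleic acid CD8 T cells, against 8.14, 8.22 and 8.41 in control CD8 T cells. On the probe sets used it was the single complex IV gene above 0 (0.06 ± 0.13). A second Cox5b probe set stood at -0.22 ± 0.18 in CD8 T cells, and a second one of Cox7b at 0.23 ± 0.23. Their 12-array means of 4.34 and 4.50 lay below the gauge of background.

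ATP synthase members were split in CD8 T cells. Atp5j had 6.41, 6.28 and 6.28 in linoleic acid CD8 T cells, against 6.59, 6.54 and 6.48 in control CD8 T cells, all below the controls (-0.21 ± 0.12). Atp5g3 had 7.41, 7.52 and 7.36 in linoleic acid CD8 T cells, against 7.57, 7.61 and 7.72 in control CD8 T cells, also without overlap (-0.20 ± 0.12). Atp5d had 7.17, 7.03 and 6.73 in linoleic acid CD8 T cells, against 7.22, 7.19 and 7.18 in control CD8 T cells, with control arrays close together and linoleic acid arrays spread out (-0.22 ± 0.13). Atp5j2 had 5.23, 4.96 and 5.47 in linoleic acid CD8 T cells, against 5.78, 5.65 and 5.22 in control CD8 T cells. This was the lowest difference of the 17 but with wide spread and overlap (-0.33 ± 0.20). The linoleic acid CD8 mean of Atp5j2, 5.22, lay near the gauge of background. In contrast Atp5l, Atp5o, Atp5g1 and Atp5k stood above 0, at 0.22 ± 0.15, 0.15 ± 0.13, 0.14 ± 0.18 and 0.11 ± 0.12.

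Of the 3 members with the smallest p in CD4 T cells, Atp5mpl and Atp5md overlapped between the cultures in CD8 T cells, and Atp5g3, given above, did not. Atp5mpl had 7.78, 7.45 and 7.91 in linoleic acid CD8 T cells, against 7.74, 7.80 and 8.11 in control CD8 T cells (-0.17 ± 0.17). Atp5md had 9.53, 9.35 and 9.82 in linoleic acid CD8 T cells, against 9.57, 9.53 and 9.71 in control CD8 T cells (-0.04 ± 0.13), and linoleic acid replicate 3 was the highest of these arrays. Atp5g2 had 10.66, 10.55 and 10.69 in linoleic acid CD8 T cells, against 10.59, 10.65 and 10.69 in control CD8 T cells (-0.01 ± 0.11), and the cultures overlapped. Atp5g1 had 5.20, 5.23 and 5.04 in linoleic acid CD8 T cells, against 5.02, 5.10 and 4.92 in control CD8 T cells, and both means (5.16 and 5.01) lay at or near the same gauge. For Cycs the values were 8.73, 8.78 and 9.21 in linoleic acid CD8 T cells, against 8.71, 8.78 and 9.0 in control CD8 T cells (0.08 ± 0.15), and replicate 3 was the highest of each culture.

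**Figure D3:**
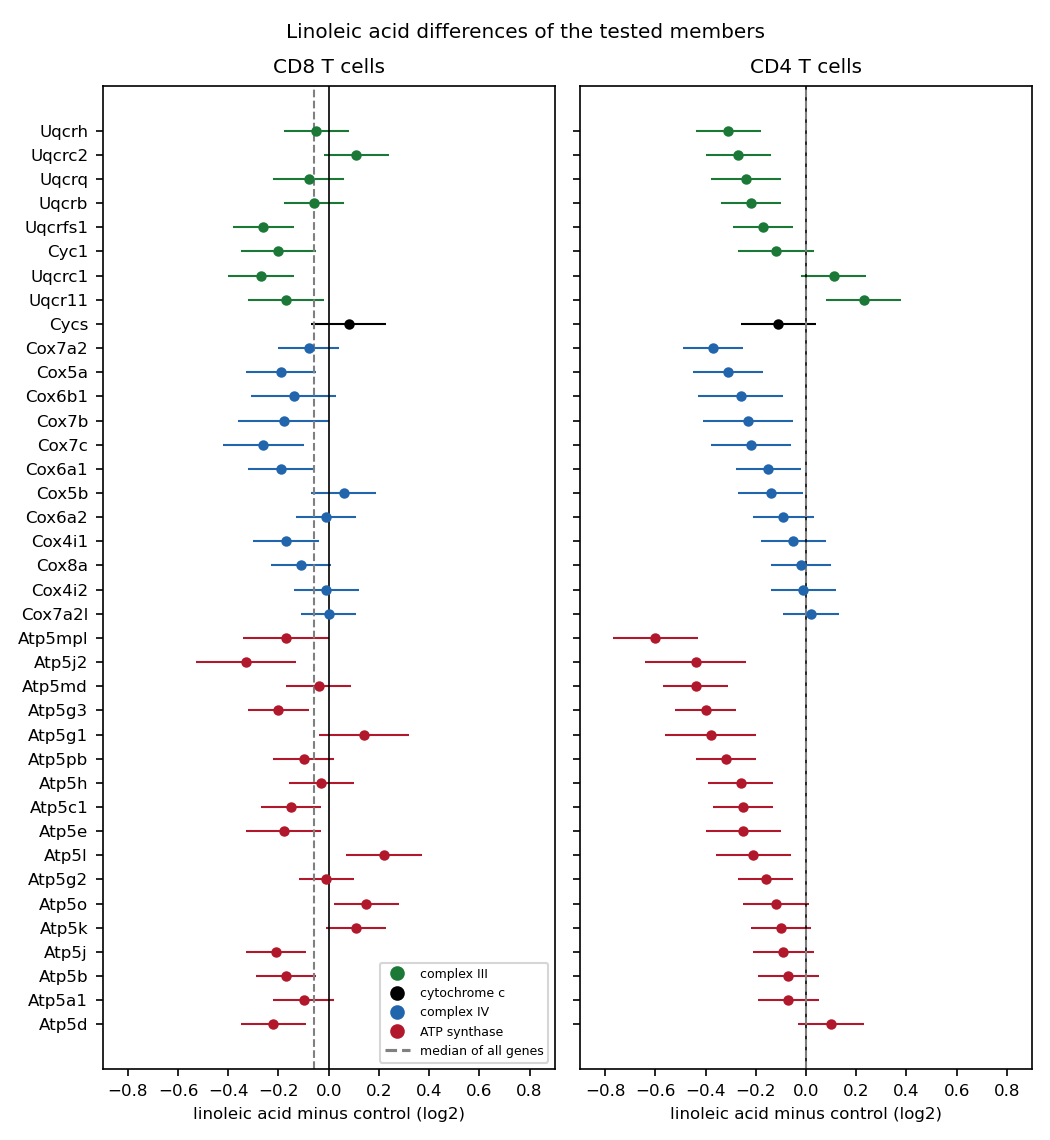
Log2 difference of linoleic acid minus control for the 38 tested members in CD8 (left) and CD4 T cells (right), with bars of 1 standard error from limma (n = 3 arrays per group). Members are ordered within each complex by the CD4 difference, and the dashed line is the median of all 14323 tested genes, -0.06 in CD8 and 0.00 in CD4 T cells. In CD4 T cells 34 of the 38 points lie left of 0, and in CD8 T cells 31 do.

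The difference between the 2 responses, CD8 minus CD4, was tested directly as an interaction. Its median over the members was 0.11, against -0.04 over all genes, with 24 members above 0 (63.2%, against 42.9%) and 14 below. ATP synthase had a median of 0.20 with 13 of 17 above 0, while complexes III and IV stood at 0.04 and 0.02 with equal numbers on both sides. No gene passed the adjusted threshold in limma (0 of 14323, 0%). At an unadjusted p under 0.05 1 member was higher (2.63%, against 1.42% of all genes) and 0 were lower (against 0.929%), and with the replicate block 5 were higher (13.2%, against 3.02%) and 1 lower (2.63%, against 5.28%). With arrays centred on the 75th percentile 9 members lay below 0 (against 45.7% of all genes, and 57.1% as deposited).

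Atp5md was the member past an unadjusted p of 0.05, with a difference of responses of 0.40 ± 0.18 (limma unadjusted p = 0.0429, adjusted p = 0.953). Atp5g1 had a larger but less certain value of 0.53 ± 0.25, which was 0.29 without control CD4 replicate 1. Its means were 5.01 to 5.16 in 3 of the 4 groups, at or near the gauge of background, and 5.5 in control CD4 T cells. The core subunits of complex III lay on opposite sides, Uqcrc2 at 0.38 ± 0.19 and Uqcrc1 at -0.38 ± 0.18 (limma unadjusted p = 0.0685 and 0.0571, adjusted p = 0.953 for both). Uqcrc2 was at 0.24 without control CD4 replicate 3, and Uqcrc1 at -0.23 without linoleic acid CD8 replicate 3. Neither core gene passed the threshold, so no difference between the cell types can be called for them at this number of arrays. Cox7a2 and Cox5b, the complex IV genes with the smallest p, stood at 0.29 ± 0.17 and 0.20 ± 0.18. Cox5b was -0.04 on the arrays numbered 2 and 3 only and 0.10 without linoleic acid CD4 replicate 1. A second, dim probe set of Cox5b stood at -0.05 ± 0.25.

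Set against CD4 T cells in linoleic acid culture, CD8 T cells had slightly higher values of most members. Of 38, 28 lay above 0 (73.7%, against 45.9% of all genes), with a median of 0.09, against -0.02 over all genes. No member passed the adjusted threshold in limma, where 2.03% of genes did. At an unadjusted p under 0.05 3 were higher (7.89%, against 4.33%) and 0 were lower (against 7.46%). The 3 were ATP synthase genes: Atp5mpl (0.48 ± 0.17), Atp5g2 (0.26 ± 0.11) and Atp5h (0.28 ± 0.13). Without linoleic acid CD8 replicate 3 this count was 0 (against 4.72% of all genes), and without linoleic acid CD4 replicate 2 it was 1 (against 3.20%). A second probe set of Atp5g2 stood at 0.24 ± 0.11 in this comparison. The dimmer probe set of Atp5h stood at -0.20 ± 0.17, on the other side of 0 from the one used. Atp5mpl had an adjusted p = 0.246 in limma and of 0.049 with the replicate block, where 5.57% of all genes passed, and it was the single member to do so.

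The CD8 and CD4 arrays in linoleic acid did not overlap for 7 members, all higher in CD8 T cells (18.4%, against 6.31% of all genes higher and 8.98% lower): Atp5g2, Atp5g3, Atp5h, Atp5k, Atp5mpl, Cox8a and Uqcrc2. Uqcr11 and Uqcrc1 stood lowest, at -0.28 ± 0.15 and -0.25 ± 0.13. Uqcr11 was at -0.12 without CD4 replicate 1, and Uqcrc1 at -0.10 without CD8 replicate 3. Cox7a2 and Cox8a, the complex IV members with the smallest p, differed by 0.18 ± 0.12 (0.10 without CD4 replicate 3) and 0.16 ± 0.12. These values share the linoleic acid arrays with the responses above and are not a further test of them. B cell markers stood below 0 in 13 of 13 tested genes for CD8 against CD4 in linoleic acid (median -0.47). Myeloid markers did so in 8 of 15 (median 0), and the part of these lists in the result was not tested.

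In control culture, CD8 minus CD4 put equal numbers of members on each side, 19 above and 19 below 0 (50.4% and 49.6% of all genes), with a median of 0.00 and 0.00 over all genes. With arrays centred on the median, 15 members lay below 0 (against 46.4% of all genes). No member passed in limma, where 1.95% of all genes did. At an unadjusted p under 0.05 Cox8a was higher in CD8 T cells (0.26 ± 0.12, 2.63% of members, against 4.98% of all genes) and Atp5g1 lower (-0.48 ± 0.18, 2.63%, against 4.39%). The Atp5g1 value was -0.25 without control CD4 replicate 1, and its control CD8 mean of 5.01 lay below the gauge of background. Atp5d and Uqcrc1 were higher without overlap (0.27 ± 0.13 and 0.13 ± 0.13) and Atp5md lower without overlap (-0.17 ± 0.13), against 8.52% of all genes higher and 7.53% lower in that way. Cox6a1 and Uqcrc2 stood at 0.14 ± 0.13 and -0.15 ± 0.13, and without control CD4 replicate 3 at 0.05 and -0.01. Atp5d was at 0.17 without that array. For CD8 against CD4 in control culture, B cell markers stood below 0 in 13 of 13 tested genes (median -0.32). Myeloid markers did so in 13 of 15 (median -0.17), and the part of these lists was not tested.

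Forms of complex IV subunits known from other tissues gave low values. Cox6b2, Cox7b2 and Cox8c, known from testis, and Cox7a1 and Cox8b, known from heart and skeletal muscle, were the 5 members left untested. Their group means were 4.04 to 4.34 for Cox6b2, 2.02 to 2.30 for Cox7b2, 3.09 to 3.16 for Cox8c, 4.05 to 4.19 for Cox7a1 and 3.66 to 3.83 for Cox8b. Olfactory and vomeronasal receptor genes, whose products serve smell, give a gauge of background, since 95% of 1394 such genes had means under log2 5.11. These 5 members lay below it, as did Cox4i2 and Cox6a2, the lung and muscle forms, whose group means were 5.02 to 5.07 and 5.04 to 5.16.

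Several probe sets represented 7 of the members, and some of them disagreed. The examples here were chosen after their values were seen. For Atp5h the brighter probe set, used above, differed by -0.03 ± 0.13 between linoleic acid and control CD8 T cells. The dimmer one had 5.91, 5.47 and 5.30 in linoleic acid CD8, against 6.25, 5.98 and 6.37 in control CD8 T cells, a gap without overlap of -0.64 ± 0.17 (limma over 24807 probe sets, unadjusted p = 0.00289, adjusted p = 0.799). A second Atp5d probe set differed by -0.77 ± 0.40 in CD8 T cells, where the one used differed by -0.22. Of the 5 Cycs probe sets a pair held identical values, and the 4 not used had CD4 differences of -0.33 to -0.21, lower than the -0.11 of the one used. Processed pseudogenes of Cycs and other members are known in the mouse, and whether probe sets read such copies was not tested. A further 4 probe sets carried several symbols, of Uqcr10, Uqcrb and Cox6c with predicted genes, and were left out.

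Members with and without the promoter cores could be set side by side as a description. The 8 tested members with an NRF1 core had a median CD4 difference of -0.12 (-0.21 to 0.23), against -0.25 (-0.44 to 0.10) for the 21 others with a promoter. In CD8 T cells the medians were 0.02 with the core and -0.15 without it. For the ETS core the CD4 medians were -0.21 in 11 members with it and -0.20 in 18 without it. These lists overlap, and no difference between them was tested.

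Other genes of the mitochondrion lay on the same side of 0, and so the values of the members can be read beside theirs. Over all tested genes the medians were -0.06 in CD8 and 0 in CD4 T cells, with 63.1% and 51.4% below 0. The 32 nuclear genes of complex I, which feeds electrons into the chain, had medians of -0.13 in CD8 and -0.20 in CD4 T cells. Of these, 28 (87.5%) and 30 (93.8%) lay below 0, and 0 passed the adjusted threshold in limma. Ndufb8 (-0.48 ± 0.15) and Ndufa12 (-0.44 ± 0.13), accessory subunits of complex I, had the smallest p in CD4 T cells. Complex II, 4 genes, stood at -0.19 in CD8 and -0.17 in CD4 T cells. Mitochondrial ribosomal protein genes, which serve translation of the mitochondrially encoded subunits, had medians of -0.17 and -0.15 over 70 genes. Their lowest named values were Mrpl20 in CD8 (-0.49 ± 0.16) and Mrpl32 in CD4 T cells (-0.53 ± 0.16).

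Assembly factors of the complexes had medians between -0.19 and -0.12 in both cell types. Those of complex IV stood at -0.14 in CD8 and -0.12 in CD4 T cells over 24 genes. Surf1 and Coa6, needed to build complex IV, were at -0.31 ± 0.14 each in CD4 T cells, and Higd1a, which binds complex IV, and Lrpprc, which stabilizes mitochondrial mRNA, were at -0.34 ± 0.14 and -0.27 ± 0.13 in CD8 T cells. For complex III the 7 tested factors gave -0.13 in CD8 and -0.15 in CD4 T cells, and for ATP synthase the 6 tested, with the inhibitor gene Atpif1, gave -0.15 and -0.19.

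Regulators of mitochondrial biogenesis had a lower median in CD8 than in CD4 T cells. Over 18 tested genes the median was -0.15 in CD8 T cells, against -0.06 over all genes, with 15 below 0 (83.3%, against 63.1%). In CD4 T cells the median was 0.02, against 0 over all genes, with 8 below 0 (44.4%, against 51.4%). The difference of responses had a median of -0.19, against -0.04 over all genes, on the other side of 0 from that of ATP synthase. Ppargc1b, a coactivator of mitochondrial genes, stood at -0.43 ± 0.13 in CD8 T cells (limma unadjusted p = 0.00567, adjusted p = 0.757), and Gabpb1, a subunit of GABP, at -0.26 ± 0.12. Markers of the outer membrane, of import and of the citric acid cycle had medians of -0.18 in CD8 and -0.09 in CD4 T cells over 19 genes. Cytoplasmic ribosomal protein genes, which serve no mitochondrial ribosome, had medians of -0.02 in CD8 and -0.09 in CD4 T cells over 61 genes. Of these, 40 lay below 0 in CD8 T cells (65.6%, against 63.1% of all genes), a share near the background. In CD4 T cells 52 lay below 0 (85.2%, against 51.4% of all genes). A tilt below 0 in CD4 T cells was thus not particular to mitochondrial genes. In limma 0 genes of these lists passed the adjusted threshold for linoleic acid or for the difference of responses.

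**Figure D4:**
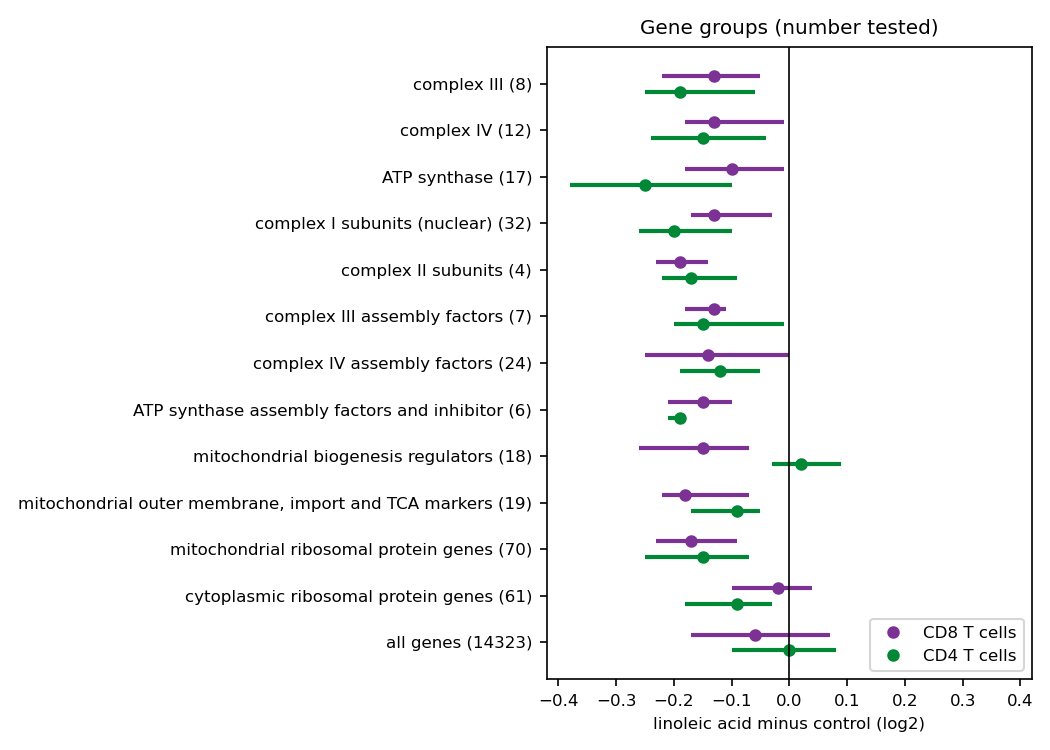
Median log2 difference of linoleic acid minus control over the tested genes of each group (points), with the range from the lower to the upper quartile (bars), in CD8 and CD4 T cells. The number of tested genes follows each name. The ATP synthase median of -0.25 in CD4 T cells lies furthest left, and the biogenesis regulators have medians of -0.15 in CD8 and 0.02 in CD4 T cells.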

How the data were processed

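Values are log2 intensities from single-colour Affymetrix MoGene-2_0-st arrays, deposited as 1 value for each of 41345 probe sets on each of 12 arrays. The authors' normalization was RMA, per the submitters' processing notes; not given in the sources used here are its software, version, summary level and build. Probe sets with 1 annotated symbol (23521) were named, 1814 with several and 16010 with none were not, and a gene with several took the one whose 12-array mean was highest. Genes in the lowest 40% of probe set means were not tested.

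Group means were fitted on all 12 arrays with limma 3.58.1 in R 4.3.3 (lmFit and eBayes, two-sided, 8 residual and 5.67 prior degrees of freedom). Benjamini-Hochberg adjustment was over 14323 genes. The fit was run on simulated data with independent noise and with changes larger than any member difference here. That run does not speak to changes of the size seen in the members. The number of arrays limits the precision. Same-numbered arrays deviated together, with r of 0.19 to 0.61 over the linoleic acid comparisons and 0.26 to 0.58 for CD8 against CD4 in linoleic acid. Numbers were therefore taken as pairs there, which comes from the data and not the labels. For linoleic acid in CD4 T cells, number 3 had an r of 0.32 with its own number and 0.32 with another. Number 2 had 0.19 and 0.09. The pairing of number 3 was thus not set apart in that comparison. Control CD8 against control CD4 had an r of -0.01 for number 2 and was not paired.

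Members, gene lists and motifs were chosen with earlier results of these data known. Named members were the 2 per complex with the smallest p in each comparison, Cyc1 and Cycs, and others by role; of each other list, those with the smallest p. Alternatives were the block, other filters, probe set rules, array centring, array weights, fewer groups and each array left out.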

Additional observations from a re-analysis of the deposited data

How the results depend on the processing

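Of 1530 values recomputed under alternatives, 1424 were scored as the same, 93 moved, 1 became stronger, 0 weaker and 12 changed sign. Sign and call were scored for single genes only. Counts were scored by their ratio and medians by their shift, so a median near 0 could cross it and be scored as the same. The member median in control culture did so, from -0.04 to 0.05 with 1 array left out. With the replicate block 1 gene passed in each linoleic acid comparison, 798 genes and 1 member (Atp5mpl, 0.48, adjusted p = 0.049) passed for CD8 against CD4 in linoleic acid, and 630 genes in control culture, where the numbers were not taken as pairs. The block changed no other call of a member. Array weights, whose estimate did not reach its convergence tolerance, gave 213 genes for linoleic acid in CD8 T cells, where 11 members (28.9%, against 15.0% of all genes) were then lower at an unadjusted p under 0.05 and 0 passed. They gave 1 gene in CD4 T cells, 2299 genes and 1 member for CD8 against CD4 in linoleic acid, and 0.11 for the ATP synthase median of the difference of responses. Fits on only the groups compared gave 138 genes for CD8 against CD4 in linoleic acid. Centring arrays on the median gave a CD8 linoleic acid median of the members of -0.16 (-0.11 over all genes tested). Centring on the 75th percentile gave medians of -0.04 for the members, -0.07 for complex IV and -0.04 for ATP synthase in CD8 T cells, and for the difference of responses 0.18, 0.09 and 0.26. It left 23 members below 0 in CD8 T cells and 34 in CD4 T cells, and in control culture median centring left 15 below 0 for CD8 against CD4. On the arrays numbered 2 and 3 only, chosen after the data were seen, ATP synthase stood at -0.19 in CD8 T cells, 1 gene passed in CD4 T cells, Cox5b was at -0.04 for the difference of responses, ATP synthase at 0.15 for CD8 against CD4 in linoleic acid and complex IV at 0.12 in control culture. Cycs in CD8 T cells was at -0.01 with all probe sets averaged and at -0.03 with array weights. With 1 array left out at a time the ATP synthase median ranged from -0.15 (without control replicate 1) to -0.04 (without linoleic acid replicate 2 or control replicate 3) in CD8 T cells and from -0.27 to -0.18 in CD4 T cells, where complex IV ranged from -0.18 to -0.08. The count of members lower at an unadjusted p under 0.05 in CD4 T cells was 5 without linoleic acid replicate 3 (against 1.16% of all genes) and 12 without control replicate 2 (against 2.95%). The difference of responses ranged from 0.05 to 0.16 for the members, -0.05 to 0.07 for complex IV and 0.13 to 0.24 for ATP synthase. For CD8 against CD4 in linoleic acid the members ranged from 0.04 to 0.15, ATP synthase from 0.04 to 0.16, and the genes past the threshold from 150 (without CD4 replicate 2) to 322 (without CD8 replicate 1); in control culture these were -0.05 to 0.07 for ATP synthase and 176 to 223 genes, the lowest without CD8 replicate 1. Single genes near 0 changed sign: Cycs ranged from -0.07 to 0.17 in CD8 T cells, from 0 to 0.24 for CD8 against CD4 in linoleic acid and from -0.15 to 0.02 in control culture, and Cyc1 from -0.19 to 0.06 for the difference of responses and from -0.04 to 0.20 for CD8 against CD4 in linoleic acid. The cause of these shifts was not tested. The number of arrays, 3 a group, limits the precision, and 7 members lay below the gauge of background.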

Other observations

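Lyrm7, an assembly factor that matures the iron-sulfur subunit of complex III, stood apart between the cell types in control culture. It was higher in CD8 than in CD4 T cells by 0.95 ± 0.18 (limma adjusted p = 0.0101), and in linoleic acid culture by 0.49 ± 0.18 (adjusted p = 0.269, and 0.0462 with the replicate block). Its linoleic acid differences gave -0.47 ± 0.25 as CD8 minus CD4 (adjusted p = 0.953), and in CD8 T cells it stood at -0.37 ± 0.18 after linoleic acid. It was the single tested assembly factor of complex III past the threshold in control culture.

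Slc25a4, which exchanges ATP made by ATP synthase for ADP across the inner membrane, was also higher in CD8 T cells, by 0.95 ± 0.12 in linoleic acid culture (limma adjusted p = 0.000426) and by 0.92 ± 0.12 in control culture (adjusted p = 0.000559). Idh3a, of the citric acid cycle, was higher by 0.54 ± 0.12 in linoleic acid culture (adjusted p = 0.0269) and stood at 0.49 ± 0.12 in control culture (adjusted p = 0.0528). The tested members of the respiratory complexes differed by 0.48 at most, in either direction and culture.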
